A study of Mus musculus with 9 samples.

Results

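Hematopoietic stem and early progenitor cells were picked out of femur bone marrow by their transcripts, and 395 such cells were found among 39051 cell barcodes, or 1.01%. The 39051 were the deposited barcodes with at least 1000 UMIs (unique molecular identifiers, each 1 captured transcript), at least 500 genes and at most 10% of UMIs from mitochondrial genes. A barcode was counted as a member when it held at least 1 UMI of Cd34, at least 2 UMIs in the sum of Meis1, Hlf, Angpt1, Adgrl4 and Adgrg1 (the stem sum), no UMI of Cd79a, and less than 1% of its UMIs from Mpo, Elane and Prtn3. The Cd79a condition removed B-lineage cells. The limit on Mpo, Elane and Prtn3, which encode granule proteins, left out precursors rich in them, but not every cell with such UMIs. Of the members, 280 held a UMI of Mpo, 272 of Prtn3 and 35 of Elane, and 61 held none of these genes.

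The marrow came from 9 female mice aged 9 to 10 weeks, 3 of each strain, and each mouse gave 1 droplet-based single-cell library of 3′ transcript ends. The parent strains NZB (New Zealand Black) and NZW (New Zealand White) and their F1 hybrid, NZBWF1, were neither treated nor engineered. All mice were delivered together from 1 supplier, and each library stands for a separate animal, so the p-values measure the spread between mice. The NZBWF1 female is a widely used model of systemic lupus erythematosus, and the mice were studied as young adults.

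Hematopoietic stem cells sit at the top of the blood lineages, renew themselves and divide rarely, and give rise to multipotent progenitors that begin to express genes of several lineages at low levels before they commit. Transcription factors such as Meis1, Hlf, Hoxa9, Gata2 and Mecom keep stem cells in their state, and receptors such as Kit (for stem cell factor) and Flt3 (for Flt3 ligand) tell them whether to survive, rest or divide. In the mouse, Cd34 is low on the most dormant stem cells and higher on multipotent progenitors, among which those with Flt3 lean to the lymphoid lineage.

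The 6 genes of the rule mark the members by construction, so their levels in the members, against the other barcodes and between strains, describe the selection, and no single test of them in the members is given. They stayed among the genes of the strain fits and of the interaction fits. Over the 9 mice Cd34, a surface sialomucin of early progenitors, averaged 450.3 CPM (counts of a gene scaled to 1e+06 UMIs, over the summed members of a mouse) in the members and 14.8 CPM in the other barcodes. The homeobox factor Meis1 averaged 138 against 4.8 CPM, the leucine zipper factor Hlf 117 against 2.1 CPM and the Tie2 ligand Angpt1 116 against 3.6 CPM. Of the granule genes that the rule limited, Mpo was still higher in the members in 9 mice, at 1551 against 903 CPM. Prtn3 averaged 781 against 1484 CPM and Elane 48.8 against 1293 CPM. Of the 395 members, 187 held a UMI of Meis1, 154 of Hlf, 154 of Angpt1, 219 of Adgrl4 and 301 of Adgrg1, so the last gene, an adhesion G-protein-coupled receptor of stem cells, let in the most cells. Across the mice Meis1 ran from 120.4, 152 and 175 CPM in NZB through 113, 136 and 127 CPM in NZW to 123, 135 and 165 CPM in NZBWF1, with the 3 strains overlapping. Hlf measured 90.3, 86.2 and 74.3 CPM in NZB, 99, 141 and 186 CPM in NZW and 82, 177 and 122 CPM in NZBWF1, and here the NZW values lay above the NZB values while NZBWF1 spanned both.

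The borders of the rule left out cells that shared genes with the members. Among the members, 93 had a stem sum of exactly 2 and 153 had 5 or more, and 169 carried a single UMI of Cd34, while 120 barcodes met every other condition with a stem sum of 1. Pooled over mice, cells just inside the stem-sum limit held 89.8 CPM of Kit and 11.8 CPM of Mecom, and those just outside held 76.0 and 5.3 CPM. At the limit on granule genes, the 58 members with 0.5 to 1% of such UMIs held 100.3 CPM of Flt3 and 1997 CPM of Ctsg, which encodes cathepsin G of neutrophil granules, whereas the 50 barcodes with 1 to 2% held 36.9 and 3137 CPM. At the limit on Cd34, 416 barcodes, more than the members, met every other condition without a Cd34 UMI. They held 90.6 CPM of Kit and 119.9 CPM of Gata2, against 124 and 96.8 CPM in the pooled members, and 27.7 CPM of Flt3 and 31.2 CPM of Cd27, against 138 and 139 CPM. A cell with 0 UMIs of Cd34 may still express the gene, so the members cannot be taken as all stem and early progenitor cells of the marrow.

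The members were deeper than the rest of the marrow, with a median of 4332 UMIs and 1821 genes per cell against 2298 UMIs and 979 genes. Their sums per mouse ran from 121979 to 290187 UMIs. In each mouse the highest doublet scores were marked, at a preset rate of 0.8% per 1000 kept barcodes. This marked 17 members (4.30%) and 1458 kept barcodes (3.73%), and the rate fixed the latter number in advance. No barcode sequence was shared between the members of different libraries, although 2 members had a barcode sequence that also occurred in another library. Markers of other cell types were present at uneven levels. Over the 9 mice the summed CPM of 9 neutrophil markers ran from 3443 to 55601 in the members (152189 in the other barcodes, on average). That of 7 erythroid markers ran from 8.2 to 2854 (1919), and that of 8 monocyte and macrophage markers from 52.4 to 437 (548). In 2 sets the members had the higher mean. The 6 megakaryocyte markers ran from 8.2 to 8302 CPM, with a mean of 1460 against 55.3 CPM. The 5 basophil and mast cell markers ran from 48.2 to 2181 CPM, with a mean of 522 against 152 CPM. Whether such UMIs were the members' own or came from other cells was not tested. The highest megakaryocyte sum, in NZB replicate 3, came with a single cell of 39990 UMIs, out of 228859 summed over that mouse's members. T-cell markers were between 0 and 54.0 CPM with Cd3e and Trac at 0, B-cell markers between 35.0 and 192 CPM, and stromal markers between 0 and 46.6 CPM with Lepr, Col1a1 and Col3a1 at 0. Endothelial markers summed to 194 to 377 CPM, above the 62.2 CPM of the other barcodes, with Flt1 at 0. Egfl7, on that list, is also a gene of stem cells. In 36 members over 5% of UMIs came from markers of other cell types, and 11 of these were in NZBWF1 replicate 3.

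Members were a small share of the marrow in all 3 strains. NZB mice held 1.18%, 1.31% and 1.25% of them among kept barcodes, NZW mice 0.882%, 0.856% and 0.848%, and NZBWF1 mice 0.585%, 1.28% and 0.844%. All NZB mice lay above all NZW mice, while the NZBWF1 mice spread over the whole range. The means were 1.25% ± 0.0652 (SD, n = 3) for NZB, 0.862% ± 0.0176 for NZW and 0.903% ± 0.351 for NZBWF1, and the 3 strains were not separated by a 2-sided exact permutation test over the 280 partitions of the mice (p = 0.154, smallest possible 0.0036). Leaving out NZBWF1 replicate 2 brought the exact permutation p to 0.0036, so the verdict rested on that mouse. A pair of strains cannot fall below an exact p of 0.1. Levels of the rule's own genes also enter the share. In the neutrophil precursors defined further on, Cd34 and Adgrg1 were lower in NZB than in NZW. Their log2 differences there were -0.59 (edgeR adjusted p = 0.00477) and -1.34 (edgeR adjusted p = 0.0279). In early erythroid cells that of Adgrg1 was -2.99 (edgeR adjusted p = 5.87e-10). What part this had in the shares, or in the strain calls below, was not tested. The share depends on depth, since the conditions on Cd34 and on the stem sum need UMIs to be met: when every barcode was first thinned to 1000 UMIs, 62 members remained and the exact permutation p was 0.979. When instead only barcodes with at least 2000 UMIs and 1000 genes were kept, 369 members remained, the mean shares were 2.64% in NZB, 1.85% in NZW and 1.91% in NZBWF1, and the exact permutation p was 0.0607. Median depth per member was 5682, 3578 and 4928 UMIs in NZB, 5216.5, 3518.5 and 3322.5 in NZW and 6952, 3542 and 5411.5 in NZBWF1, overlapping throughout (exact permutation p = 0.464).

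**Figure D1:**
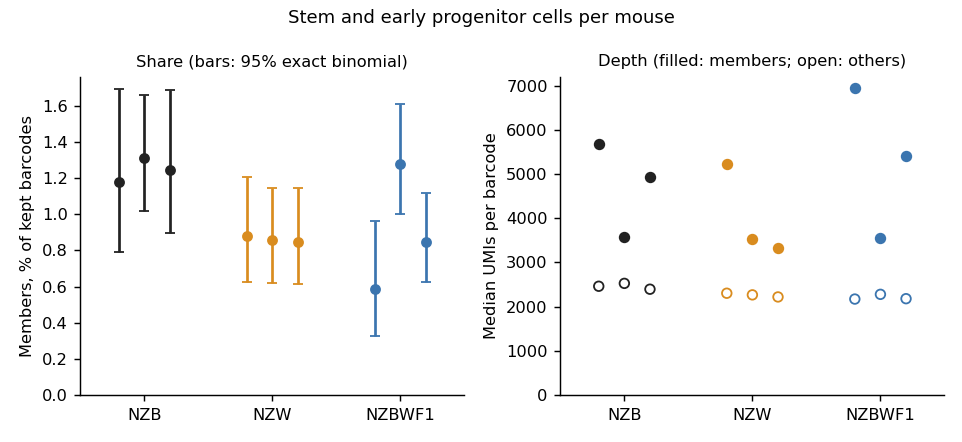
Share of kept barcodes that were stem and early progenitor cells (percent) and median UMIs per member, by strain. Each filled point is the members of 1 mouse, and open points give the median UMIs of that mouse's other barcodes. Bars on the shares are 95% exact binomial intervals, which cover counting error within a mouse only. The depth points carry no bars. The NZB shares lie between 1.18% and 1.31%, above the NZW shares of 0.848% to 0.882%, and the NZBWF1 mice span 0.585% to 1.28%.

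Genes that the rule did not read set the members apart from the rest of the marrow. Because the same cells were chosen by expression, these values are a description and carry no test. Among stem cell transcription factors, 21 of 30 were higher in the members than in the other barcodes in 9 of 9 mice, and none was lower in 9. Of all 13644 genes with a UMI in the members, 10.5% were higher and 6.83% lower in 9 of 9 mice, and of the 3022 genes at 50 CPM or more in the members, where counts are less sparse, 28.1% were higher and 8.8% lower. Both shares are given as the background of such counts, from which nothing is drawn about the lists. The homeobox gene Hoxa9 ran from 50.2 to 106 CPM in the members and from 4.38 to 7.9 CPM elsewhere. Gata2, a zinc finger factor needed by stem cells, ran from 49.2 to 159 CPM against 5.07 to 12.1 CPM, and Mecom from 13.5 to 30.3 CPM against 0.25 to 0.705 CPM. The members and the other barcodes did not overlap for these 3 genes. Broader progenitor regulators were also higher in every mouse, with mean levels of 490.0 against 131 CPM for the kinase Cdk6, 485 against 139 CPM for the adaptor Lmo2, 404 against 86.9 CPM for Sox4 and 313 against 140.1 CPM for Myb.

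Of 18 surface proteins and receptors of stem cells and multipotent progenitors, 9 were higher in the members in 9 of 9 mice, beside the same background. Kit measured 93 to 169 CPM in the members and 14.6 to 22.2 CPM in the other barcodes, Flt3 57.4 to 222 against 9.78 to 18.3 CPM and the TNF-receptor family member Cd27 107 to 182 against 13.5 to 18.7 CPM. The interferon gamma receptor chain Ifngr1 was the 1 member of the list lower in all mice, at 84.0 against 138 CPM on average. Genes used to sort the rarest stem cells were sparse. The endothelial protein C receptor gene Procr was found in 16 members, and the Sca-1 gene Ly6a measured 18.1, 31 and 13.1 CPM in NZB, 27, 65.6 and 31.8 CPM in NZW and 0, 34.6 and 46.6 CPM in NZBWF1, while in the other barcodes it stood at 164 to 228 CPM in NZB, 17.5 to 22.2 CPM in NZW and 90.3 to 165 CPM in NZBWF1. The label therefore covers a mixed pool of early progenitors with stem cell genes, in which the markers of the most immature cells were seldom captured.

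Genes outside the rule were ranked by the ratio of members to other barcodes. Only those with at least 50 CPM in the members and higher there in 9 of 9 mice entered the ranking. The first 20 included Spns2, a sphingosine-1-phosphate exporter (63 to 135 against 2.41 to 5.19 CPM), the membrane mucin Muc13 (40.4 to 100.4 against 1.38 to 6.15 CPM), Ctla2a, a cysteine protease inhibitor (189 to 629 against 16.6 to 69.9 CPM), and Egfl7, a secreted factor (116 to 271 against 9.27 to 19.4 CPM). Being higher in every mouse was thus a condition of the choice and is no result. The ranges of members and other barcodes did not overlap for the genes just named. The serine protease inhibitor gene Serpina3g, among these 20, also differed between strains.

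**Figure D2:**
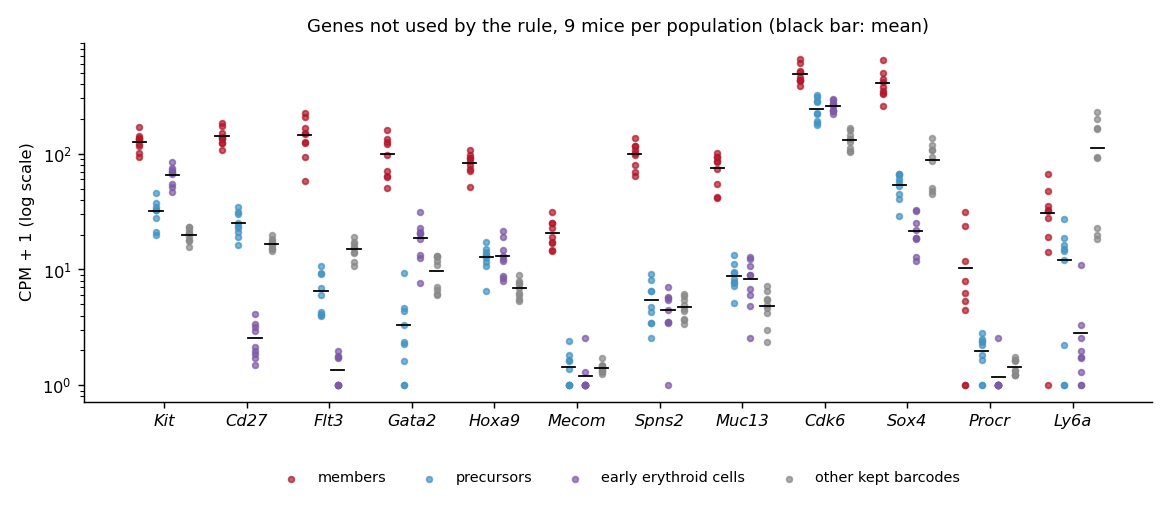
Levels of 12 genes outside the rule (CPM plus 1, log axis) in the members, the neutrophil precursors, the early erythroid cells and the other kept barcodes. Each point is 1 of 9 mice and the black bars are means. Hoxa9 lay at 50.2 to 106 CPM in the members and at 4.38 to 7.9 CPM in the other barcodes, while Procr and Ly6a overlapped with other populations.

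Genes of the cell cycle did not move as 1 group. Of 25 proliferation genes 1 was higher and 4 were lower in 9 of 9 mice, and they summed to 4862 CPM in the members and 6336 CPM in the rest. Of 13 G1 regulators 4 were higher and 5 lower. The background over all genes with a UMI in the members was 10.5% higher and 6.83% lower. At 50 CPM or more it was 28.1% and 8.8%. The G1 kinases Cdk4 and Cdk6 and the cyclin Ccnd2 (302 against 80.5 CPM) were higher in the members in every mouse, and the cyclin Ccnd3 was lower in every mouse (185 against 410.2 CPM). Mki67, a marker of cycling cells, was lower in 9 of 9 mice, from 164 to 409.9 CPM in the members against 309 to 582 CPM, while the replication licensing gene Mcm6 was higher in 9 of 9 mice (153 to 336 against 112 to 160.2 CPM). Antigen presentation genes went both ways, with 8 of 19 higher in all mice, among them the class I heavy chain H2-K1 (1123 against 636 CPM) and its light chain B2m (1009.98 against 755 CPM), and 4 lower in all mice, the class II genes H2-Aa, H2-Ab1 and H2-Eb1 and the invariant chain Cd74. These counts stand beside the same background, and nothing is drawn from them about the list. It summed to 4903 CPM in the members and 4704 CPM in the rest. Immediate early and heat shock genes, which rise when tissue is handled, summed to 214 CPM in the members and 628 CPM in the rest.

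The members differed among themselves in which lineage genes they carried. To compare cells of unequal depth, each was thinned to 1000 UMIs and scored for a UMI of a few genes per lineage. These sets were put together after the values were known. A gene of the stem set (Mecom, Procr, Hoxa10, Nkx2-3, Mycn, Esam) was seen in 52 members (13.2%, or 40.3% before thinning), against 0.221% of neutrophil precursors and 0.583% of early erythroid cells, populations defined with the comparisons of strain effects. A lymphoid gene (Flt3, Dntt, Il12a, Satb1) was seen in 117 members (29.6%, or 57.2% before thinning), against 2.98% of the precursors, 0.53% of the erythroid cells and 17.5% of B-lineage cells (barcodes outside the members with at least 5 UMIs of Cd79a and 8 other B-cell genes). A granulocyte-monocyte gene (Ctsg, Cebpa, Ms4a3) was seen in 118 members (29.9%, or 53.9% before thinning), against 94.96% of the precursors and 0.901% of the erythroid cells. Megakaryocyte-erythroid genes (Gata1, Klf1, Gfi1b, Itga2b, Car1) appeared in 39 members (9.87%) and basophil-mast genes (Cpa3, Gzmb, Ms4a2, Mcpt8) in 29 (7.34%). In B-lineage cells the granulocyte-monocyte set was seen in 2.20% and the megakaryocyte-erythroid set in 3.42%. Lymphoid and granulocyte-monocyte genes were each seen in close to 3 in 10 members, the most among these lineage sets. The sets hold unlike genes and the rule limited granule genes, so this order does not rank the programs.

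A single program was the most frequent outcome at this depth. None of the 5 sets was detected in 128 members, 1 set in 191, 2 sets in 64 and 3 sets in 12. The most frequent pair was lymphoid with granulocyte-monocyte, in 38 members, which is 32.5% of the lymphoid-positive and 32.2% of the granulocyte-monocyte-positive cells. The stem and granulocyte-monocyte sets met in 2 members, or 3.85% of the former and 1.69% of the latter. By contrast, 19 of the 29 basophil-mast-positive members (65.5%) also held a granulocyte-monocyte gene. Cells that share a mouse are not replicates, so these shares were not tested. Per mouse the lymphoid set ran from 18.4% to 53.3% and the stem set from 6.67% to 21.95%, with the 3 strains overlapping in both. The members numbered 29, 67 and 41 in the NZB mice, 38, 44 and 42 in NZW and 15, 71 and 48 in NZBWF1. The shares of NZBWF1 replicate 1 thus rest on 15 cells. The megakaryocyte-erythroid set averaged 5.08% ± 2.004 in NZB, 12.7% ± 4.46 in NZW and 9.31% ± 8.50 in NZBWF1 (SD, n = 3), the granulocyte-monocyte set 32.8% ± 8.06, 29.2% ± 3.63 and 29.6% ± 5.02, and the basophil-mast set 7.90% ± 5.69, 5.73% ± 1.87 and 8.74% ± 3.26. No test between strains was made of these shares.

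The NZB and NZW strains differed in 53 of 4040 genes tested in the members (1.31% of all genes tested, edgeR quasi-likelihood test on UMIs summed per mouse, Benjamini-Hochberg adjusted p under 0.05), with 21 higher (0.52%) and 32 lower (0.792%) in NZB. At an unadjusted p under 0.05 there were 391 (9.68%). The per-mouse ranges of the parents did not overlap in any of the 53, as against 15.3% of all genes tested. The difference exceeded 1 on the log2 scale in 43 of the 53. Near-identical copies elsewhere in the genome (at least 95% over 300 bases) exist for 23 of the 53, and their UMIs may have been split or dropped when reads were assigned, so these are given as uncertain below. The number of calls moved with single mice, to 34 without NZW replicate 1 and to 85 without NZBWF1 replicate 1.

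No stem cell transcription factor or surface receptor that could be tested was called between NZB and NZW. At the 1.31% called over all genes tested, lists this short would hold 0 or few calls, so the counts of 0 are no result about the lists. Of 19 stem cell transcription factors tested, 0 passed, with a median log2 difference of -0.00 (NZB minus NZW), equal to the median of all genes. Of 8 surface receptors, 0 passed (median 0.24), and likewise 0 of 24 proliferation genes (median 0.06), 0 of 9 cell cycle regulators (median -0.08), 0 of 8 cytokine receptors (median -0.20), 0 of 8 adhesion genes (median -0.15) and 0 of 6 early lymphoid genes (median -0.22). Kit measured 169, 93 and 139.8 CPM in NZB and 135, 121 and 133 CPM in NZW, and Cdk6 385, 599.6 and 516 CPM and 428, 419 and 435 CPM. The parents overlapped for both genes, with log2 differences of -0.04 (SE 0.256, edgeR adjusted p = 0.979) and 0.20 (SE 0.179, edgeR adjusted p = 0.822). A p that misses the threshold does not show that the levels were equal. Among 12 early granulocyte and monocyte genes 1 was lower in NZB, F13a1, and their median was -0.57. The 9 neutrophil markers had a median of -0.92 with 0 passing, and their summed level was 12766 ± 5331 CPM in NZB and 22704 ± 13653 CPM in NZW (SD, n = 3).

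Among genes without a near-identical copy, Ctse, the aspartic protease cathepsin E (chr1:131638306-131675505, plus strand, GRCm38/mm10), was higher in NZW. It measured 12, 6.89 and 8.74 CPM in NZB and 122, 162 and 90.2 CPM in NZW, without overlap (log2 difference -3.78, SE 0.481, edgeR adjusted p = 1.08e-06). The NZBWF1 mice stood at 24.6, 107 and 53.8 CPM, above all NZB mice, and replicate 2 reached the NZW range. The erythroid gene Car1, which did not pass (edgeR adjusted p = 0.161), measured 6.02, 3.45 and 8.74 CPM in NZB members, 167, 631 and 318 CPM in NZW members and 8.2, 222 and 46.6 CPM in NZBWF1 members, and the summed erythroid markers were 130 ± 154 CPM in NZB and 1494 ± 1396 CPM in NZW (SD, n = 3). Ctse is itself high in early erythroid cells, at 356 to 595 CPM over the 9 mice. Without the 36 members that had over 5% of UMIs from other cell types' markers, an alternative chosen after the values were seen, the Ctse difference was -3.92 (edgeR adjusted p = 3.12e-07). In neutrophil precursors Ctse was also lower in NZB, by a log2 difference of -5.31 (SE 0.342, edgeR adjusted p = 9.16e-19). The part of erythroid transcripts in the Ctse difference of the members was not tested.

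Adgrg3 and Nkg7 were higher in NZB. Adgrg3, an adhesion G-protein-coupled receptor (chr8:95017692-95045250, plus strand), measured 102, 138 and 118 CPM in NZB, 4.5, 10.1 and 26.5 CPM in NZW and 107, 114 and 50.2 CPM in NZBWF1. NZW stood apart below both other strains, and NZB and NZBWF1 overlapped (NZB minus NZW log2 difference 3.11, SE 0.442, edgeR adjusted p = 6.30e-06). The gene is the downstream neighbour of Adgrg1 (chr8:94974751-95014217, plus strand), which belongs to the rule and measured 271, 234 and 288 CPM in NZB and 342, 323 and 371 CPM in NZW, values that the choice of members shaped. In the neutrophil precursors and early erythroid cells defined further on, whose choice did not ask for it, Adgrg1 was lower in NZB, by a log2 difference of -1.34 (SE 0.411, edgeR adjusted p = 0.0279) and of -2.99 (SE 0.243, edgeR adjusted p = 5.87e-10). Nkg7, a granule membrane protein of cytotoxic lymphocytes (chr7:43437073-43438249, plus strand), measured 241, 207 and 249 CPM in NZB, 49.5, 30.3 and 58.3 CPM in NZW and 73.8, 72.7 and 143 CPM in NZBWF1. Each NZB mouse lay above every other mouse (log2 difference 2.27, SE 0.304, edgeR adjusted p = 1.95e-06). The 6 listed natural killer markers, Nkg7 included, summed to 245 to 271 CPM in NZB and 58.3 to 94.5 CPM in NZW, with Gzma and Klra8 at 0.

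Of 16 interferon-stimulated genes tested, 1 was higher and 2 were lower in NZB, beside 0.52% higher and 0.792% lower over all genes tested. Apobec3, a cytidine deaminase that restricts retroviruses (chr15:79891659-79915906, plus strand), measured 247, 234 and 209.7 CPM in NZB and 40.5, 75.7 and 42.4 CPM in NZW. The strains did not overlap (log2 difference 2.07, SE 0.271, edgeR adjusted p = 1.24e-06). Ifitm2, an interferon-induced membrane protein that blocks virus entry (chr7:140954837-140955987, minus strand), went the other way, at 668, 548 and 712 CPM in NZB and 1962, 2105 and 1384 CPM in NZW (log2 difference -1.55, SE 0.174, edgeR adjusted p = 1.23e-07). Mndal, a nuclear DNA-binding protein of the interferon-inducible p200 family (chr1:173849126-173942491, minus strand), was also lower, at 18.1, 17.2 and 17.5 CPM in NZB against 67.5, 101 and 111 CPM in NZW (log2 difference -2.40, SE 0.386, edgeR adjusted p = 7.28e-05). Ifitm2 and Mndal have near-identical copies in the annotation, so their values are uncertain. The other 13 interferon genes did not pass and the median of the list was -0.21. Ifitm1 was among those not called, with a log2 difference of 0.46 (edgeR adjusted p = 0.556).

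Lgals1, which encodes the carbohydrate-binding galectin-1 (chr15:78926725-78930465, plus strand), was lower in NZB, with 181, 179 and 197 CPM in NZB, 446, 485 and 392 CPM in NZW and 254, 371 and 477 CPM in NZBWF1, and NZBWF1 reached from below to inside the NZW range (NZB minus NZW log2 difference -1.29, SE 0.209, edgeR adjusted p = 8.13e-05). Alad, an enzyme of heme synthesis, measured 90.3, 62 and 74.3 CPM in NZB and 171, 283 and 223 CPM in NZW, again without overlap (log2 difference -1.64, SE 0.262, edgeR adjusted p = 6.67e-05). The summed erythroid markers were also unequal between these strains in the members, at 130 ± 154 CPM in NZB and 1494 ± 1396 CPM in NZW (SD, n = 3), and their part in the Alad difference was not tested. Alad was also lower in NZB within the early erythroid cells defined further on, by a log2 difference of -1.01 (edgeR adjusted p = 7.97e-05). In the neutrophil precursors the difference was -0.46 (edgeR adjusted p = 0.0433). Without the 36 members rich in markers of other cell types, an alternative chosen after the values were seen, 48 genes were called, 42 of them among the 53.

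Some genes were nearly silent in 1 parent, where a fold change is set by the UMIs that could have been seen. Mfng, a glycosyltransferase that modifies Notch receptors, had 0 UMIs in NZB and 37 in NZW, which is at least 13.9-fold lower in NZB when 3 UMIs over the strain are taken as the floor. NZBWF1 had 21 UMIs. The predicted gene Gm42031 had 57 UMIs in NZB, 0 in NZW (at least 16.9-fold lower) and 31 in NZBWF1. Near-identical copies of Gm42031 exist, so its value is uncertain. F13a1, coagulation factor XIII chain A and a monocyte gene, had 2 UMIs in NZB and 36 in NZW, a ratio of 20.3 (95% counting interval 5.21 to 174, edgeR adjusted p = 4.71e-04). The summed monocyte and macrophage markers, F13a1 among them, were 59.9 ± 10.7 CPM in NZB and 278 ± 142 CPM in NZW (SD, n = 3). All such intervals cover counting error only.

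Within the major histocompatibility complex, 3 of 14 antigen presentation genes tested differed, beside 1.31% of all genes tested. H2-Q7, a nonclassical class I gene, measured 84.3, 134 and 127 CPM in NZB and 18, 30.3 and 26.5 CPM in NZW (log2 difference 2.20, SE 0.351, edgeR adjusted p = 6.67e-05). H2-T23, which encodes the Qa-1 molecule, was lower in NZB, at 42.1, 75.8 and 69.9 CPM against 144, 126 and 244 CPM (log2 difference -1.42, SE 0.29, edgeR adjusted p = 0.0032). H2-T22 was lower as well, at 24.1, 34.5 and 21.8 CPM against 90, 70.7 and 111 CPM (log2 difference -1.73, SE 0.367, edgeR adjusted p = 0.00486). None of the 3 overlapped between the parents, the list as a whole had a median of 0.11, and class I genes share long stretches of sequence, so reads of 1 could be counted for another. Lst1 and Ltb, neighbours in the same complex with roles in myeloid cells and lymphoid tissue, were lower in NZB, with log2 differences of -1.70 (edgeR adjusted p = 0.00317) and -1.62 (edgeR adjusted p = 0.039).

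Hsp90aa1, Ahsa1 and Hsph1, which encode chaperones or their partners, were higher in NZB, and these 3 were grouped after their values were seen. Hsp90aa1, the inducible Hsp90 chaperone, was higher by 0.60 (SE 0.153, edgeR adjusted p = 0.0312), its activator Ahsa1 by 1.07 (SE 0.272, edgeR adjusted p = 0.0306) and the Hsp110 chaperone Hsph1 by 1.47 (SE 0.322, edgeR adjusted p = 0.00697) on the log2 scale. The Hsph1 values were 78.2, 165 and 166 CPM in NZB and 36, 45.4 and 68.9 CPM in NZW. Its call was lost without NZB replicate 2 (edgeR adjusted p = 0.0915), NZW replicate 1 (0.085) or NZW replicate 2 (0.0582). Near-identical copies of Hsp90aa1 exist. The listed immediate early and heat shock genes could be tested in only 2 cases, and 0 passed.

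**Figure D3:**
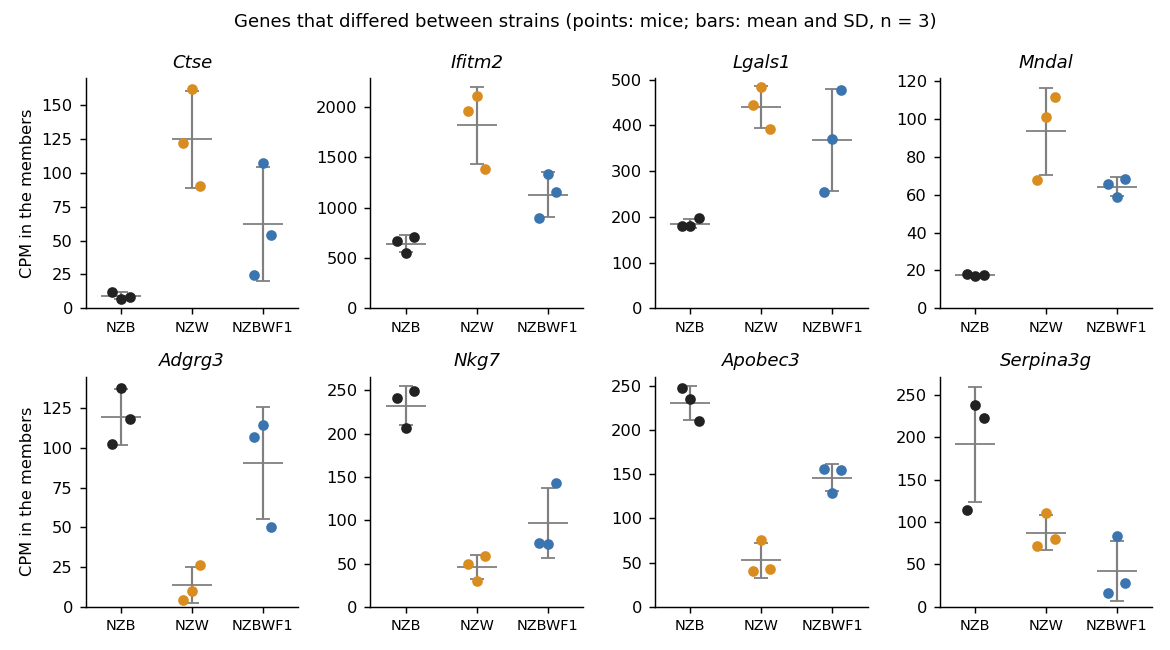
Levels (CPM, linear axis from 0) of 8 genes that differed between strains in the members. Each point is 1 mouse and the bars give the mean and SD over 3 mice. Ctse, Ifitm2, Lgals1 and Mndal were lower in NZB than in NZW, Adgrg3, Nkg7 and Apobec3 were higher in NZB, and Serpina3g had its lowest mean in NZBWF1.

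The largest difference by p-value was in the ferritin light chain, a subunit of the iron storage protein. Ftl1 (chr7:45457944-45459884, minus strand) measured 1438, 1013 and 1512 CPM in NZB, 85.5, 55.5 and 63.6 CPM in NZW and 861, 855 and 1058 CPM in NZBWF1 (NZB minus NZW log2 difference 4.20, SE 0.219, edgeR adjusted p = 1.24e-17). Its near-identical copy Ftl1-ps1 (chr13:74399694-74407346, plus strand) measured 6.02, 10.3 and 0 CPM in NZB, with 4 UMIs in all, 1638, 1297 and 1309.9 CPM in NZW and 574, 630.3 and 972 CPM in NZBWF1, the mirror image of Ftl1 (edgeR adjusted p = 1e-09). The annotated transcripts, 968 and 938 bases long, matched at 99.56% of 910 aligned bases with 4 mismatches, and their coding parts of 549 bases differed at 2 positions. A stretch of 60 bases that holds both coding differences, from position 468 to 527 of the coding sequence, is shown because reads in it are all that separates the 2 genes within the coding part. Capitals mark the differing bases, G1A and G37A counted from the 5′ end of the stretch with the Ftl1 base first. Sequences are from the GRCm38/mm10 reference, and the New Zealand strains' own sequences were not analysed here.
Ftl1: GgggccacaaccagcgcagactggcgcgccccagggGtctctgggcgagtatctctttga
Ftl1-ps1: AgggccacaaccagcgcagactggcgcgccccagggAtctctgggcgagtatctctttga

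Added together, the genes gave 1445, 1023 and 1512 CPM in NZB, 1724, 1353 and 1374 CPM in NZW and 1435, 1486 and 2030.1 CPM in NZBWF1. The 3 strains overlapped, with means of 1327 ± 265, 1483 ± 209 and 1650.2 ± 330.0 CPM (SD, n = 3), and the exact permutation test over 280 partitions gave p = 0.454. The ratio of NZB to NZW means was 19.4 for Ftl1 alone and 0.894 for the sum. The strains therefore differed in which of the 2 near-identical genes received the UMIs, and a difference in the sum of the 2 was not detectable. Ftl1 has 5 near-identical copies in the annotation, and only Ftl1-ps1 was added. The sum is thus not the total ferritin light chain transcript. The sum was looked at after the values of both genes were seen. Tropomyosin 3 has such a pair of genes too. Tpm3-rs7, a near-identical copy of Tpm3, measured 126, 179 and 188 CPM in NZB and 4.5, 10.1 and 0 CPM in NZW, from 116 and 3 UMIs, a ratio of 34.4 (95% counting interval 11.5 to 169), whereas Tpm3 and Tpm3-rs7 together measured 265, 362 and 389 CPM in NZB and 252, 348 and 228 CPM in NZW, which overlapped, at a ratio of means of 1.23. Ribosomal protein genes with many copies gave further calls, with Rps3a1 at 7782, 7671 and 7162 CPM in NZB and 3173, 2892 and 3384 CPM in NZW (log2 difference 1.22, edgeR adjusted p = 4.02e-10), and Rps2 and Rpl21 lower in NZB, at -1.23 (edgeR adjusted p = 1e-09) and -1.06 (edgeR adjusted p = 1.64e-07).

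**Figure D4:**
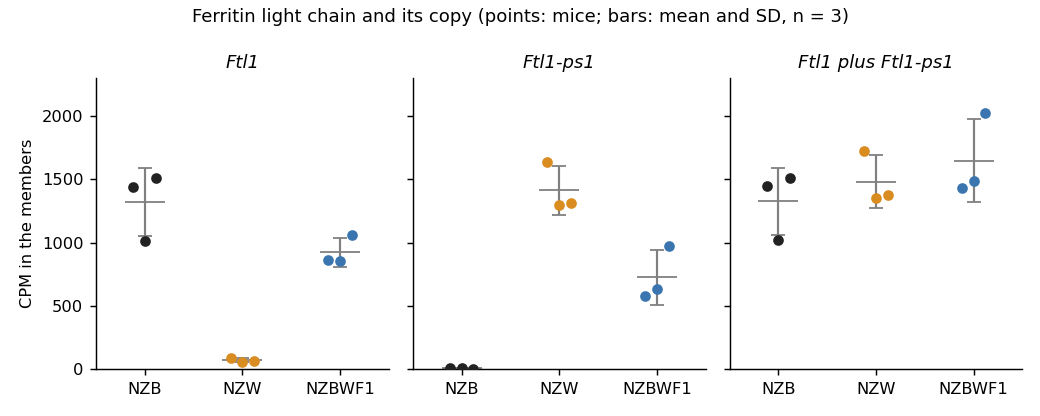
Levels (CPM) of Ftl1, of its copy Ftl1-ps1 and of their sum in the members. Each point is 1 mouse and the bars give the mean and SD over 3 mice. Ftl1 is at 55.5 to 85.5 CPM and Ftl1-ps1 at 1297 to 1638 CPM in NZW, Ftl1-ps1 is at 10.3 CPM or less in NZB, and the sums overlap between the strains.

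The F1 hybrid lay between its parents. Of the 53 genes that separated NZB from NZW, the NZBWF1 mean was between the parent means for 52, and for Fam46a, a nucleotidyltransferase family gene, it was above both. The call on Fam46a between the parents was lost without NZB replicate 3 (edgeR adjusted p = 0.0708), NZW replicate 1 (0.122) or NZW replicate 2 (0.0505). The 53 were chosen for the gap between the parents, so an intermediate hybrid mean is no independent result. Against NZB, 15 of 4040 genes differed (0.371%), 11 of them higher (0.272%) and 4 lower (0.099%) in NZBWF1, and 283 passed at an unadjusted p under 0.05 (7%). Against NZW, 7 differed (0.173%), 6 of them higher (0.149%) and 1 lower (0.0248%) in NZBWF1, and 184 passed unadjusted (4.55%). These comparisons share the NZBWF1 mice and, with the comparison of the parents, the NZB or NZW mice. Leaving out 1 mouse moved the count against NZB from 15 to 2 without NZB replicate 2, 6 without NZB replicate 3, 9 without NZBWF1 replicate 2 or replicate 3, and 28 without NZBWF1 replicate 1. The count against NZW rose from 7 to 11 without NZB replicate 3.

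Serpina3g was the 1 gene called in the hybrid comparisons that was not called between the parents. It measured 114, 238 and 223 CPM in NZB, 72, 111 and 79.6 CPM in NZW and 16.4, 83.1 and 28.7 CPM in NZBWF1, so all hybrids lay below all NZB mice and overlapped NZW. The log2 difference from NZB was -2.01 (SE 0.359, edgeR adjusted p = 0.0114), and the call was lost without NZB replicate 2 (0.11) or NZB replicate 3 (0.0829). A neighbouring family member has a near-identical stretch, so this value is uncertain. Ctse was higher in NZBWF1 than in NZB by 2.92 (SE 0.533, edgeR adjusted p = 0.00475), a call lost without NZB replicate 2 (0.11) or NZBWF1 replicate 2 (0.143). Adgrg3 was higher than in NZW by 2.64 (SE 0.472, edgeR adjusted p = 0.00156), and this call was kept without any 1 mouse. Apobec3 was higher than in NZW by 1.41 (SE 0.288, edgeR adjusted p = 0.0122), which became 0.188, 0.127 and 0.0941 without NZW replicate 1, NZW replicate 3 and NZBWF1 replicate 3.

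The study asked where the hybrid departs from the mean of its parents. Against the mean of the parents' log levels 2 genes passed (0.0495%), Ftl1 at 1.60 (SE 0.159, edgeR adjusted p = 1.20e-08) and Ftl1-ps1 at 2.93 (SE 0.288, edgeR adjusted p = 3.45e-05), and 160 passed unadjusted (3.96%). The count was 4 without NZB replicate 1 and 5 without NZBWF1 replicate 1. Both were higher in the hybrid. A level midway between unequal parents on the linear scale lies above the midpoint of the logs, and most so when 1 parent is nearly silent. Ftl1-ps1 was nearly silent in NZB, while Ftl1 was low but present in NZW. The linear NZBWF1 means of 925 CPM for Ftl1 and 725 CPM for Ftl1-ps1 stood beside parent means of 1321 and 68.2 CPM, and of 5.45 and 1415 CPM. For Ftl1 the hybrid mean lay nearer to that of NZB. What part the choice of scale had in the 2 calls was not tested.

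Whether the strain differences also held in nearby cells was tested with an interaction term, in a fit that kept the mouse as a block. The first population compared held 2719 barcodes with at least 1% of UMIs from Mpo, Elane and Prtn3 and no Cd79a UMI. They are called neutrophil precursors here, though their commitment to that lineage was not tested. The second held 1887 early erythroid cells outside the members, with at least 2 UMIs of Car1 and no Cd79a UMI. These also had under 1% of UMIs from Mpo, Elane and Prtn3 and under 5% hemoglobin UMIs. Several of the NZB-NZW differences described above were also present in those populations when each was fitted on its own, where 11.4% of 8409 genes in the precursors and 6.74% of 8692 in the erythroid cells passed. In precursors the log2 difference was -5.31 for Ctse (edgeR adjusted p = 9.16e-19), -2.75 for Mndal (1.43e-12), 2.29 for Apobec3 (8.37e-17), -0.89 for Ifitm2 (4.61e-08), 1.15 for H2-Q7 (0.00425), 1.89 for Hsph1 (0.0156), 5.27 for Ftl1 (2.85e-21) and 4.37 for Tpm3-rs7 (7.78e-26). Mfng and Gm42031, near 0 in 1 parent, also passed in the same directions as in the members. Adgrg3 (0.09, edgeR adjusted p = 0.798), Nkg7 (0.32, 0.0816), Lgals1 (-0.34, 0.0986) and Fam46a (-0.35, 0.0953) did not pass there. In erythroid cells Apobec3 (1.38, edgeR adjusted p = 1.60e-10), H2-Q7 (2.54, 1.25e-04) and Ctse (-0.42, 0.0161) passed in the direction of the members, and Nkg7 (0.72, 0.372) and Lgals1 (-0.36, 0.62) did not pass. These fits use the same mice as the comparison in the members. By the interaction term, the NZB-NZW difference was unequal between members and precursors in 27 of 7399 genes (0.365%) and between members and early erythroid cells in 39 of 7402 (0.527%). The 39 include Adgrg1, a gene of the rule, whose level in the members their choice shaped. That call is no result about the strains. Leaving out 1 mouse gave 8 to 37 genes for the precursors, with 8 without NZW replicate 2, 10 without NZB replicate 1 or 2 and 17 without NZB replicate 3, and 18 to 53 for the erythroid cells, with 18 without NZB replicate 2, 24 without NZB replicate 1 and 22 without NZW replicate 3. The calls on Nkg7, Adgrg3, Ifitm1, Ly6a, Ctse, Ifitm2 and Gbp7 below were kept without any 1 mouse.

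Adgrg3 and Nkg7 had a strain difference in the members that the precursors did not share to the same degree. In precursors Adgrg3 measured 60.3, 55.1 and 62.2 CPM in NZB and 53, 46.7 and 56.7 CPM in NZW, so the wide gap seen in the members was small there (difference of log2 differences 3.08, SE 0.472, edgeR adjusted p = 2.00e-05). Nkg7 measured 554, 666 and 581 CPM in NZB precursors and 515, 448 and 401 CPM in NZW precursors (difference 1.98, SE 0.315, edgeR adjusted p = 3.35e-04). Both genes are expressed at sizeable levels in precursors of both strains, and in the members the NZW level was the lower one. Against early erythroid cells the interaction term did not pass for Adgrg3 (3.04, SE 0.944, edgeR adjusted p = 0.153) or Nkg7 (1.59, SE 0.556, edgeR adjusted p = 0.262). The strain differences of these genes are therefore not called particular to the members.

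Ifitm1 behaved the opposite way. This interferon-induced membrane protein gene measured 776, 1089 and 861 CPM in NZB members and 589.6, 671 and 679 CPM in NZW members. The NZB mice lay above the NZW mice, but the difference was not called. In precursors it was 99.8, 251 and 99.5 CPM in NZB and 19.6, 20.5 and 18.7 CPM in NZW (difference -2.31, SE 0.235, edgeR adjusted p = 6.26e-11), and in early erythroid cells 33.3, 54.9 and 84.7 and 12.6, 11.3 and 10.5 CPM (difference -1.91, SE 0.256, edgeR adjusted p = 3.88e-06). The NZW mice thus had a lower level in the later cells, while the level in the members was high in both strains. Ly6a stood at 17.8, 26.4 and 14.1 CPM in NZB precursors and 0, 1.24 and 0 CPM in NZW precursors, higher in NZB, while the member values given above overlapped and had the higher mean in NZW (edgeR adjusted p = 7.04e-07). Its NZW precursors were almost without UMIs, so no size is given.

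Against early erythroid cells, the Ctse difference of the members was the larger one. Ctse measured 356, 416 and 373 CPM in NZB and 545, 532 and 482 CPM in NZW erythroid cells (difference -3.44, SE 0.453, edgeR adjusted p = 1.57e-06), far above the NZB members. Ifitm2 differed between strains in both populations, and more so in the erythroid cells, at 183, 191 and 259.9 CPM in NZB and 1169.6, 1022 and 996 CPM in NZW (difference 0.77, SE 0.149, edgeR adjusted p = 0.00126). The guanylate-binding protein gene Gbp7 measured 60.2, 82.7 and 78.7 CPM in NZB members and 67.5, 60.6 and 42.4 CPM in NZW members, which overlapped, but 52.5, 43.7 and 35.8 and 4.73, 9.11 and 3.62 CPM in the erythroid cells (difference -2.46, SE 0.441, edgeR adjusted p = 3.50e-04). When the hybrid was set against the parents' mean log level, 0 genes passed in the precursor fit (0%), with 309 at an unadjusted p under 0.05, and 1 gene, Serpina3g, passed in the erythroid fit (0.0135%). That call was lost without NZB replicate 2 (edgeR adjusted p = 0.3), NZB replicate 3 (0.184), NZW replicate 2 (0.178), NZBWF1 replicate 2 (0.607) or NZBWF1 replicate 3 (0.0771).

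**Figure D5:**
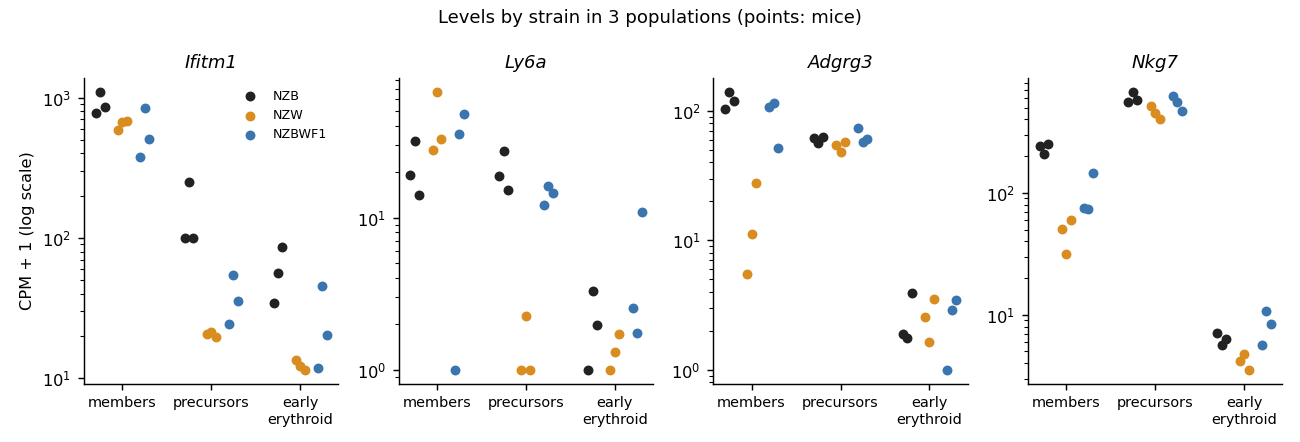
Levels of Ifitm1, Ly6a, Adgrg3 and Nkg7 (CPM plus 1, log axis) in the members, the neutrophil precursors and the early erythroid cells, by strain. Each point is 1 mouse. Adgrg3 and Nkg7 separate NZB from NZW in the members more than in the precursors, whereas Ifitm1 separates them in the precursors, at 99.5 to 251 against 18.7 to 20.5 CPM, more than in the members.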

How the data were processed

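The data were droplet-based single-cell RNA-seq of femur marrow from 9 mice, 1 library each. The deposited values are raw UMI counts per gene and barcode, which the authors made with Cell Ranger 3.1.0 after bcl2fastq 2.20 on mm10, per the submitters' processing notes, and merged into 1 filtered matrix. How the merge treated depth was not stated. Each barcode's library was read from its numeric suffix, taken as the order of the aggregation list; 0 columns lacked a sample. Ages and strains came from the labels.

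Counts of the members were summed per mouse (121979 to 290187 UMIs) and tested with edgeR 4.0.16 (TMM, filterByExpr, robust glmQLFit and glmQLFTest, strain as the only term, R 4.3.3), with Benjamini-Hochberg adjustment over 4040 genes and a threshold of 0.05. Precursors and early erythroid cells were fitted in the same way, and interaction fits added mouse as a block. Single values were tested by exact permutation over mice. Doublets were scored with Scrublet in scanpy 1.11.5 and left in. Alternatives were DESeq2 1.42.0, other scaling, filters, rule limits and leaving out mice. The code was tested on simulated data. Gene positions came from GENCODE vM21 (410 of 410 genes described), and near-identical copies from blastn 2.17.0 on its transcripts.

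Named genes were those of the rule, the 10 called genes of smallest p per direction and contrast, the called and up to 4 highest genes of each list, 8 fixed genes, and the 20 genes of largest ratio to other barcodes among those with at least 50 CPM in the members and higher there in 9 of 9 mice. Not all were printed. The members and lists were chosen with earlier results of these data known.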

Additional observations from a re-analysis of the deposited data

Results flagged for a closer look

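Among the genes described outside the rule, the following had an NZB-NZW difference in the stem and early progenitor cells that departed from that in another population by the interaction test (edgeR, Benjamini-Hochberg adjusted p in parentheses). Each value is the log2 difference NZB minus NZW in the members less the same in the other population. Groups of 3 mice were not examined for single outlying samples.

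Against neutrophil precursors the difference was 1.98 for Nkg7 (3.35e-04), 3.08 for Adgrg3 (2.00e-05), -2.31 for Ifitm1 (6.26e-11), 0.48 for Rps3a1 (0.00395), -0.90 for the galectin gene Lgals1 (0.00388), -0.66 for the ferritin heavy chain Fth1 (5.81e-04), -1.02 for the cyclin Ccnd3 (0.034), -1.19 for Alad (0.0367) and -1.06 for Ftl1 (0.0286). Near-zero levels in 1 strain or population lie behind the fitted values of -6.03 for Ly6a (7.04e-07), -5.20 for the erythroid gene Car1 (0.0331), -3.41 for the macrophage gene C1qa (0.0208) and -3.30 for F13a1 (0.00808), which are no measure of size.

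Against early erythroid cells the difference was -3.44 for Ctse (1.57e-06), -2.46 for Gbp7 (3.50e-04), -1.91 for Ifitm1 (3.88e-06), 0.77 for Ifitm2 (0.00126), -1.04 for Plac8 (6.03e-05), -1.03 for the lysozyme gene Lyz2 (0.00636) and -1.91 for Fam46a (0.0184). Genes near 0 in 1 strain or population were -5.40 for C1qa (9.18e-07), -5.81 for F13a1 (3.79e-04), 2.57 for the platelet gene Gp9 (0.0209), -2.58 for Apoe (0.0405) and 4.11 for the class II gene H2-Aa (0.00867). For the hybrid set against the parents' mean log level it was -2.95 for Serpina3g (0.0333).

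When the 36 members with over 5% of UMIs from other cell types' markers were left out, a choice made after seeing the data, 6 of the 25 NZB-NZW differences no longer passed: Car1 (0.123), Alad (0.131), C1qa against precursors (0.344), Ftl1 (0.646), Apoe (0.419) and Fam46a (0.0637).

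The calls on Nkg7, Adgrg3, Ifitm1, Ly6a, Ctse, Gbp7, Ifitm2 and Plac8, and on C1qa against erythroid cells, were kept without any 1 mouse. The others were lost when single mice were left out (edgeR adjusted p without that mouse in parentheses). Against precursors, Rps3a1 was lost without NZB replicate 1 (0.0616) or 2 (0.0734) or NZW replicate 2 (0.231), Lgals1 without NZB replicate 1 (0.141) or NZW replicate 2 (0.112), and Fth1 without NZW replicate 2 (0.0765). Ccnd3 was lost without NZB replicate 1 (0.104), 2 (0.175) or 3 (0.114) or NZW replicate 2 (0.076) or 3 (0.445), and Alad without the same 5 mice (0.104, 0.188, 0.194, 0.311 and 0.153). Ftl1 was lost without NZB replicate 1 (0.0722) or 2 (0.179) or NZW replicate 1 (0.54) or 2 (0.276), and Car1 without NZB replicate 1 (0.0722), 2 (0.43) or 3 (0.0625), NZW replicate 2 (0.252) or NZBWF1 replicate 1 (0.0936). C1qa was lost without NZB replicate 1 (0.104) or 2 (0.188) or NZW replicate 1 (0.255) or 2 (0.114), and F13a1 without NZB replicate 1 (0.104) or 3 (0.0677) or NZW replicate 2 (0.0765).

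Against erythroid cells, H2-Aa was lost without NZB replicate 3 (0.848), where its value fell from 4.11 to 1.65, or without NZW replicate 2 (0.0505) or 3 (0.569). Lyz2 was lost without NZB replicate 1 (0.0808) or NZW replicate 2 (0.155), F13a1 without NZB replicate 2 (0.14), and Fam46a without NZB replicate 1 (0.0806), 2 (0.14) or 3 (0.172) or NZW replicate 1 (0.162) or 2 (0.134). Gp9 was lost without NZB replicate 2 (0.1) or 3 (0.332) or NZW replicate 1 (0.0802), 2 (0.126) or 3 (0.0926), and Apoe without NZB replicate 1 (0.211), 2 (0.26) or 3 (0.0538) or NZW replicate 1 (0.44) or 3 (0.111). The hybrid value of Serpina3g was lost without NZB replicate 2 (0.3) or 3 (0.184), NZW replicate 2 (0.178) or NZBWF1 replicate 2 (0.607) or 3 (0.0771).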

How the results depend on the processing

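The NZB against NZW count of 53 became 31 with DESeq2, 104 with no filter on low counts, 18 with at least 10 counts in every mouse, 31 without the 140 members with 2 or more endothelial or stromal UMIs and 34 to 85 with 1 mouse left out. The NZBWF1 against NZB count of 15 became 40 with no filter, 3 with at least 10 counts and 2 to 28 with 1 mouse left out. The NZBWF1 against NZW count of 7 became 13 with no filter, 2 with at least 10 counts, 12 with a stem sum of at least 1, 13 without the members marked as doublets and 5 to 11 with 1 mouse left out. The count of 2 against the mean of the parents' logs became 4 with no filter, 1 with at least 10 counts, 4 with a stem sum of at least 1, 5 without the members with endothelial or stromal UMIs and 2 to 5 with 1 mouse left out (4 without NZB replicate 1, 5 without NZBWF1 replicate 1). With 1 mouse left out the NZB-NZW gap in share was 0.353 to 0.418 percentage points (0.385 with all mice, and 0.385 without NZBWF1 replicate 2, where the 3-strain test passed) and that in median depth 234 to 1309 UMIs. The count against precursors became 41 with at least 10 counts in every sum and 8 to 37 with 1 mouse left out, and for the hybrid 0 to 3. The count against erythroid cells became 12 with at least 10 counts and 18 to 53 with 1 mouse left out, and for the hybrid 0 to 9, with 2 when members rich in other cells' markers were left out. The smaller counts under stricter filters come with fewer genes tested (1695 with at least 10 counts in every mouse). The NZB to NZW ratio of Ftl1, 19.4, reversed to 0.894 when its copy was added, as the copy holds the UMIs of NZW. The place of the NZBWF1 mean also turned: its share of 0.903%, above the 0.862% of NZW, was 0.715% without NZBWF1 replicate 2, after thinning it was 0.156%, above the 0.143% of NZB, and its median depth of 5302 UMIs, above the 4729 of NZB, was 4477 without NZBWF1 replicate 1. Of 45 calls on named genes, 45 were kept with RLE scaling, 36 with DESeq2, where the cause of the losses was not tested, and 344 of 405 over all fits without 1 mouse.

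Replicate numbers are shared by the strains. In gene levels same-numbered mice deviated together only weakly (correlations -0.0952 to 0.137, not all above 0.1), so the numbers were not taken as pairs. In each strain, though, replicate 1 had the fewest kept barcodes (2455 in NZB, 4309 in NZW and 2566 in NZBWF1). It also had the highest median depth per member (5682, 5216.5 and 6952 UMIs). What same-numbered mice had in common was not tested, and the permutation tests of share and depth did not use the numbers. With the replicate block the counts were 67, 32, 8 and 3 for NZB against NZW, NZBWF1 against NZB, NZBWF1 against NZW and the mean of the parents' logs.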
